A study of Mus musculus with 2 samples.

Results

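Heat shock proteins and chaperones help other proteins to fold, keep unfolded chains from clumping and pass damaged ones on for degradation. They were taken as the transcript clusters with 1 gene symbol whose symbol names an Hsp70 or Hsp110 (Hspa, Hsph), an Hsp90, a small heat shock protein (Hspb), a J-domain protein (Dnaja, Dnajb, Dnajc), a chaperonin (Cct, Tcp1, Hspd1, Hspe1) or the factors Hsf1 and Hsf2. This gave 79 genes of the 19938 measured: 13 of the Hsp70 and Hsp110 family, 2 Hsp90 genes, 8 small heat shock proteins, 43 J-domain proteins, 12 chaperonins and Hsf2. No cluster with 1 symbol carried Hsf1, Hsp90ab1 or Hspa1b, which were not analysed here.

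The RNA came from CD4 T cells of mouse spleen, sorted by their surface TCRbeta and CD4 and mostly low in CD44, which favours naive cells. The knockout sample (Taf7 -/-) carried 1 floxed and 1 null Taf7 allele with the 8EIII-cre transgene. The heterozygous sample (Taf7 +/-) carried the same pair of alleles without Cre, so loss of Taf7 and presence of Cre cannot be told apart. The strain background was a mix of C57/BL6 and 129. Ages and the number of mice behind each sample are not stated. Each genotype had 1 array. A difference therefore has no replicate check, no test was run, and every value below describes these arrays only.

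Hsp70 binds short hydrophobic stretches of unfolded chains in a cycle driven by ATP. J-domain proteins bring it substrates and speed up its ATP use, and Hsp110 proteins and other exchange factors reset it. Hsp90 finishes the folding of kinases and receptors, Lck among them in T cells, and chaperonins enclose a chain in a ring-shaped chamber. Heat shock factors bind arrays of the inverted pentamer nGAAn, the heat shock element, and switch on many of these genes when proteins unfold.

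Values are log2 signals, and a difference is knockout minus heterozygote on the log2 scale. Signals of different genes come from different probes and are not compared with each other. Genes with a mean signal of at least 7.71, the 50th percentile over the table's rows, count as above the filter, and 67 of the 79 chaperone genes were. The arrays had medians of 7.68 on the heterozygous and 7.75 on the knockout array. The median difference was -0.05 over the 10457 genes above the filter and 0.14 below it, so weak signals sat higher on the knockout array. Taf7 itself was at 8.34 on the heterozygous and 7.79 on the knockout array, a difference of -0.55. Its probes are not placed relative to the floxed part, so they do not check the genotype.

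Chaperone transcripts differed little between the genotypes. Of the 67 above the filter, 1 was lower by at least 1.5-fold (0.58 on the log2 scale), against 3.17% of all genes there. None was higher by 1.5-fold, against 0.449%, and none was past 2-fold in either direction, against 0.363%. These counts are near the background and are no result about chaperones. In sorted cells measured in bulk, fewer cells of a type and less RNA per cell cannot be told apart. The 1 gene past 1.5-fold was Hspe1, and its nearest neighbours inside the limit were Hsf2 at -0.55 and Hspa13 at -0.54. Hspe1 was itself inside the limit with the median difference of genes above the filter subtracted (-0.55), with a loess trend removed (-0.56), with quantile normalization (-0.54) and with its clusters averaged (-0.53). The median difference of all 79 was -0.06, against 0.06 over all genes, and 47 of the 79 were below 0, against 39.3% of all genes. Above the filter, 44 of the 67 differences were below 0, and 59.1% of all genes there were.

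**Figure D1:**
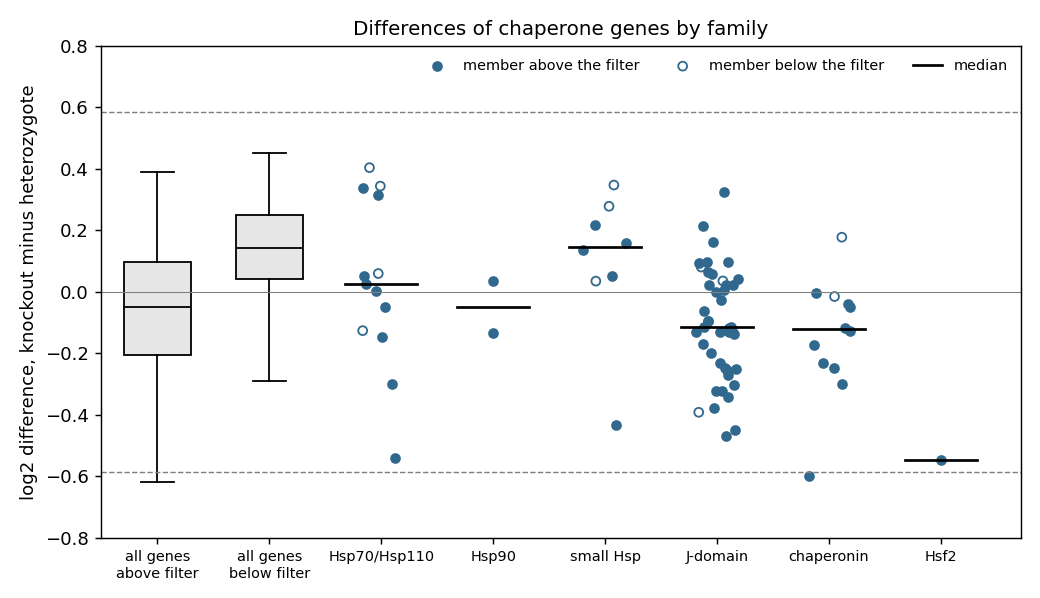
Log2 difference, knockout minus heterozygote, of each of the 79 chaperone genes by family (filled points above the low-signal filter, open points below it, bars the family median), beside boxes of all genes above and below the filter (box: quartiles; whiskers: 2.5th to 97.5th percentile). Dashed lines mark 1.5-fold, which Hspe1 at -0.60 passes alone, and the whiskers of genes above the filter run from -0.62 to 0.39.

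Among chaperonins the mitochondrial pair stood lowest. Hspe1 encodes Hsp10, the lid of the mitochondrial folding chamber, and Hspd1 encodes Hsp60, its wall. Hspe1 had a log2 signal of 12.23 on the heterozygous and 11.63 on the knockout array, 1.51-fold lower. Of all genes above the filter, 2.91% had a lower difference. A second Hspe1 cluster had 12.14 on the heterozygous and 11.69 on the knockout array, a difference of -0.45 that does not reach 1.5-fold. Both clusters were thus lower in the knockout, and only the brighter one passed the limit. Hspd1 had 10.97 on the heterozygous and 10.67 on the knockout array, a difference of -0.30, and the difference of its second cluster was -0.29. Both genes have processed copies in the genome, and the sources used here do not say which copy each cluster detects.

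Hspe1 and Hspd1 lie head to head, and the stretch between their start sites is shown because both genes were lower and it lies upstream of each. The RefSeq table (GRCm38.p6) lists 1 start for Hspe1 and 2 for Hspd1. The 215 bases between the Hspe1 start and the nearer Hspd1 start, chr1:55087933-55088147, are given on the plus strand, so that Hspe1 begins after the last base. Capitals mark 2 overlapping heat shock elements of 3 inverted pentamers. The motif searched was GAA, TTC and GAA with any 2 bases between neighbours, or its reverse complement, so that both strands were covered.
Hspe1 and Hspd1: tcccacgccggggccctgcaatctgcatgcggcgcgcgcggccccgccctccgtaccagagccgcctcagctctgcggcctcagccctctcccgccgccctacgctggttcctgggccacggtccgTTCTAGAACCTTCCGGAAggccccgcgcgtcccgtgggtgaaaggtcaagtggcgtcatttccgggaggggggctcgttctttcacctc
The first capital lies 89 bases before the Hspe1 start. The same motif was in the windows of 4 of the 66 chaperone genes with a promoter in that table (6.06%), Hspe1, Hspd1, Hsph1 and Dnajb6, and of 0.662% of all 27025 genes there. Windows ran from 250 bases before to 50 after each start. Hspe1 and Hspd1 share their match, so it is counted for both. The differences of these 4 genes ran from -0.60 for Hspe1 to 0.31 for Hsph1, with Dnajb6 at -0.06. Their median was -0.18, against -0.10 for the other 62, and 3 of the 4 were below 0. With only 2 pentamers, GAA and TTC in either order with any 2 bases between them, 18 of the 66 (27.3%) and 17.0% of all genes had a match, and the median difference was -0.02 with and -0.13 without one. A match describes letters in a window and is no evidence of binding.

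The cytosolic chaperonin TRiC, also called CCT, folds actin and tubulin in a double ring built of 8 kinds of subunit. All 8 subunits were above the filter and had differences at or just below 0, with a median of -0.12 and a range from -0.25 to -0.00. Of all genes above the filter, 59.1% were below 0, and the median was -0.05. Cct7 had a log2 signal of 11.43 on the heterozygous and 11.18 on the knockout array. Tcp1, the first subunit described, had 11.33 on the heterozygous and 11.10 on the knockout array. These were the lowest differences of the ring, at -0.25 and -0.23. Next came Cct5 at -0.17, Cct8 at -0.13 and Cct4 at -0.12. Cct6a at -0.05, Cct2 at -0.04 and Cct3 at -0.00 had nearly equal signals on both arrays. No subunit reached 1.5-fold, and 6 of the 8 stayed below 0 once the median difference of genes above the filter was subtracted, 7 with a loess trend removed and 5 with quantile normalization. The paralogs Cct6b, a testis subunit, at -0.02 and Cct8l1 at 0.18 were below the filter.

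**Figure D2:**
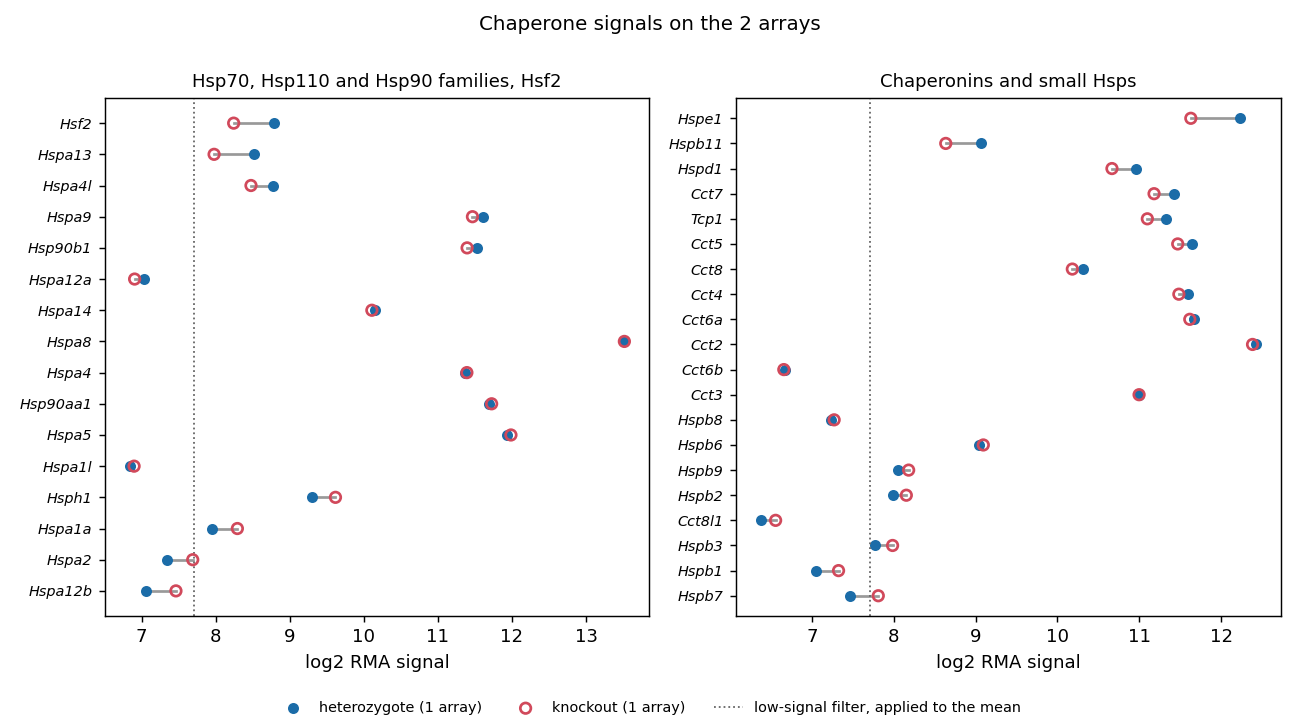
Log2 signal of each Hsp70, Hsp110 and Hsp90 gene and Hsf2 (left) and of each chaperonin and small heat shock protein gene (right), with the heterozygous array as filled and the knockout array as open points and the low-signal filter as a dotted line. Hspe1 has the widest gap to the left on the right-hand panel, from 12.23 to 11.63, while the points of Hspa8 coincide at 13.52.

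Neither the constitutive nor the stress-inducible Hsp70 genes reached 1.5-fold. Hspa8, the constitutive cytosolic Hsp70 (Hsc70), had 13.52 on both arrays, and its other clusters had differences of -0.02 and -0.04. Here too, the sources do not say which copy in the genome each cluster detects. Hspa5, the Hsp70 of the endoplasmic reticulum (BiP), had 11.94 on the heterozygous and 11.99 on the knockout array. Hspa9, the mitochondrial Hsp70 (mortalin), had 11.61 on the heterozygous and 11.47 on the knockout array. The 3 main housekeeping Hsp70s, of cytosol, reticulum and mitochondrion, thus differed by 0.00, 0.05 and -0.15. Hspa14, which works on the ribosome with Dnajc2, was at -0.05.

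Hspa1a, the Hsp70 that heat and other stress induce most, had 7.95 on the heterozygous and 8.29 on the knockout array. Its difference was 0.34, close to the filter, and 95.8% of genes above the filter were lower. A cluster assigned to both Hspa1a and its near-identical copy Hspa1b had 8.83 on the heterozygous and 9.08 on the knockout array, a difference of 0.25. Neither reached 1.5-fold. Hsph1, the inducible Hsp110 that resets Hsp70, had 9.30 on the heterozygous and 9.62 on the knockout array, a difference of 0.31, and 94.7% of genes above the filter were lower. Its relatives Hspa4 and Hspa4l were at 0.03 and -0.30. Hspa13, an atypical Hsp70 of the microsomes, had 8.52 on the heterozygous and 7.98 on the knockout array, the lowest difference of the family at -0.54, or 1.45-fold. Below the filter, Hspa2, a testis Hsp70, was at 0.34, and Hspa12b was at 0.40. Hspa1l at 0.06 and Hspa12a at -0.13 were also below it. The family median was 0.03 over 13 genes.

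The upstream stretches of Hsph1 and Hspa1a are shown because these were the inducible genes with the highest differences above the filter in their family. Each is the 250 bases before a start site of the RefSeq table (GRCm38.p6), read 5′ to 3′ on the minus strand, chr5:149636337-149636586 for Hsph1 and chr17:34972157-34972406 for Hspa1a. Capitals mark a match of 2 inverted pentamers. Hsph1 has 2 starts in that table, 21 bases apart, and the stretch before the more upstream one is shown. The Hsph1 match of 3 lies downstream of that start and so outside the part printed.
Hsph1: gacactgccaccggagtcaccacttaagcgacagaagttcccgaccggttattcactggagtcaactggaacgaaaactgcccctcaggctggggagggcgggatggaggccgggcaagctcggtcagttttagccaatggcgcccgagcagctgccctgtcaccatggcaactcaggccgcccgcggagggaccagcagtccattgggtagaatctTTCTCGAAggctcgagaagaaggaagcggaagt
Hspa1a: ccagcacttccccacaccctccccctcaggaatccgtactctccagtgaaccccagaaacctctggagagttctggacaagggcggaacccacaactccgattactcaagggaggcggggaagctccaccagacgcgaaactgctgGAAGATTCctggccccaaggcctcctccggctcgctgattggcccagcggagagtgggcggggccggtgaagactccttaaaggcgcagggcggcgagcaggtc
The marked match begins 33 bases before the more upstream start of Hsph1 and 104 before the start of Hspa1a. Neither stretch holds 3 exact pentamers in a row, whereas the one between Hspe1 and Hspd1 does.

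Hsp90 genes and Hsf2 gave 3 of the members. Hsp90aa1, the inducible cytosolic Hsp90, had 11.69 on the heterozygous and 11.73 on the knockout array, and its other clusters were at 0.02 and -0.10. Which copy in the genome each Hsp90aa1 cluster detects is likewise not stated. Hsp90b1, the Hsp90 of the endoplasmic reticulum (Grp94), which integrins and Toll-like receptors need to fold, had 11.53 on the heterozygous and 11.39 on the knockout array. The differences, 0.03 and -0.13, lie on either side of 0. Hsf2, a heat shock factor active in development, had 8.79 on the heterozygous and 8.24 on the knockout array. Its difference of -0.55, or 1.46-fold, was just short of 1.5-fold, and 4.02% of genes above the filter were lower.

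Small heat shock proteins hold unfolding proteins without using ATP. Of the 8 measured, 7 had differences above 0, and 3 of the 8 were below the filter. Signals below the filter were higher in general on the knockout array: of all genes there, only 17.4% had a difference below 0. Of the 5 small heat shock genes above the filter, 4 had differences above 0, while 59.1% of all genes there were below 0. The median of these 5 was 0.14, against -0.05 over all genes above the filter. Hspb1 (Hsp27) was below the filter at 7.04 on the heterozygous and 7.32 on the knockout array, and its second cluster had a difference of 0.26. Hspb7, a heart protein also below it, was at 0.35. Hspb3 at 0.22, Hspb2 at 0.16, Hspb9 at 0.14 and Hspb6 (Hsp20) at 0.05 were above the filter, and Hspb8 at 0.03 was below it. The exception was Hspb11, which despite its name is a subunit of the intraflagellar transport machinery of cilia (IFT25). Hspb11 had 9.07 on the heterozygous and 8.63 on the knockout array, a difference of -0.43. The family median of 0.15 was 0.08 with a loess trend on signal removed, and 6 of the 8 were then above 0. Hspb3, Hspb2 and Hspb9 lay close to the filter, with mean signals of 7.9, 8.1 and 8.1. With the trend removed they were at 0.09, 0.07 and 0.05, and Hspb6 was at 0.13.

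J-domain proteins made up 43 of the members, 40 of them above the filter. Their median difference was -0.12, with 28 below 0 and 15 above, and none reached 1.5-fold. Of the 40 above the filter, 27 were below 0, against 59.1% of all genes there. The median of these 40 was -0.12, against -0.05. The median was -0.04 for the 4 Dnaja genes, -0.13 for the 13 Dnajb genes and -0.12 for the 26 Dnajc genes. After subtraction of the median difference of genes above the filter, the median of the 43 was -0.07, and 26 were below 0.

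**Figure D3:**
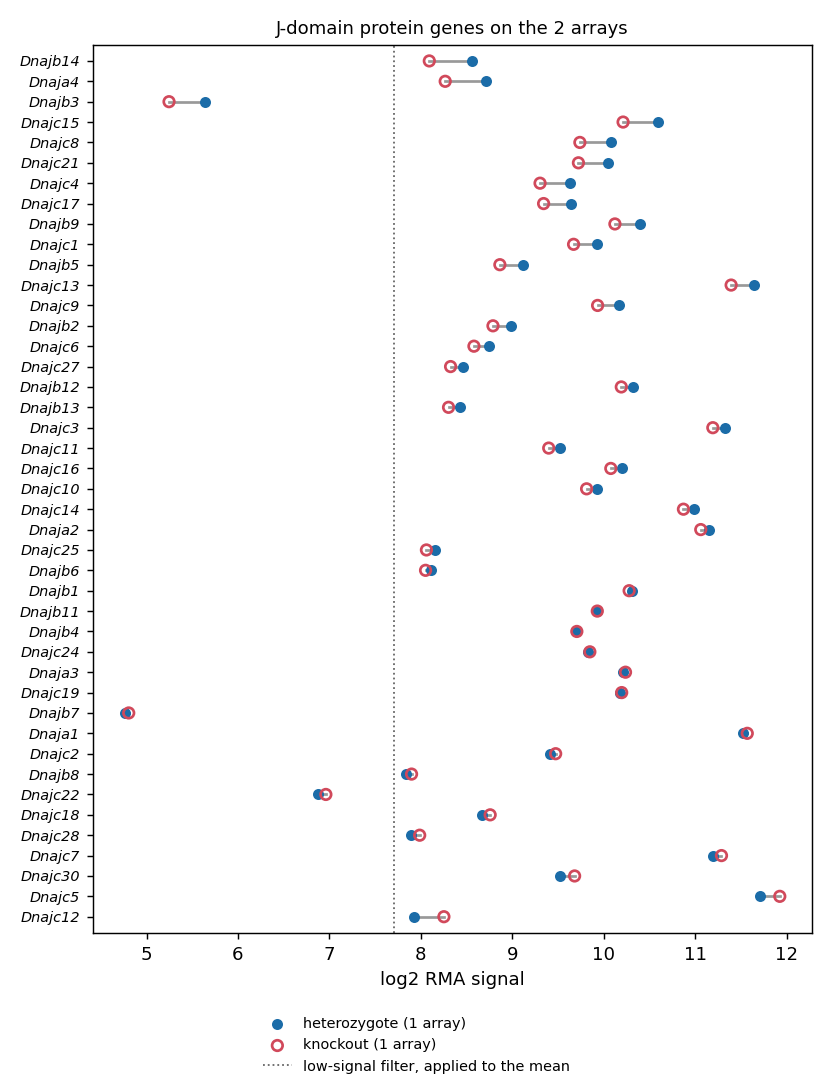
Log2 signal of the 43 J-domain protein genes on the heterozygous (filled) and the knockout (open) array, ordered by difference, with the low-signal filter as a dotted line. The gaps run from -0.47 for Dnajb14 at the top to 0.32 for Dnajc12 at the bottom, none of them 1.5-fold.

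Dnajb14, a J-domain protein of the endoplasmic reticulum membrane, had 8.56 on the heterozygous and 8.09 on the knockout array, the lowest difference of the family at -0.47. Clusters assigned to both Dnajb14 and Pin4 were each at -0.20. Dnaja4, a cytosolic partner of Hsp70, had 8.71 on the heterozygous and 8.26 on the knockout array. Dnajc15, a mitochondrial inner membrane protein (MCJ) that restrains respiratory complex I, had 10.59 on the heterozygous and 10.21 on the knockout array. These differences of -0.47, -0.45 and -0.38 compare with a central 95% range of -0.62 to 0.39 over all genes above the filter, so all 3 lie inside it. Next lowest above the filter were Dnajc8, a partner of the spliceosome, at -0.34, and Dnajc21, which acts in ribosome assembly, at -0.32. Dnajc4 was at -0.32, Dnajc17, a nuclear splicing-linked protein, at -0.30 and Dnajb9 (ERdj4), a reticulum partner of BiP, at -0.27. The brightest J-domain signals were those of Dnajc5, Dnaja1, Dnajc13, Dnajc3, Dnajc7 and Dnaja2, a choice that rests on probe signal and ranks no transcripts.

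At the other end among genes above the filter, Dnajc12, which helps aromatic amino acid hydroxylases fold, had 7.93 on the heterozygous and 8.25 on the knockout array, a difference of 0.32 close to the filter. Dnajc5, the cysteine string protein of secretory vesicles, had 11.71 on the heterozygous and 11.92 on the knockout array, a difference of 0.21. Dnajc30, a mitochondrial protein, was at 0.16. Dnajc7, which also binds Hsp90, and Dnajc28 were both at 0.10, Dnajc18 was at 0.09, Dnajb8 at 0.07 and Dnajc2, the ribosome partner of Hspa14, at 0.06. The heat-inducible Dnajb1 (Hsp40) had 10.30 on the heterozygous and 10.28 on the knockout array. Among the co-chaperones of BiP, Dnajb11 was at -0.00, Dnajc10 at -0.12 and Dnajc3 (p58IPK) at -0.13. The mitochondrial Dnaja3 and Dnajc19 were both at 0.02, and Dnaja2, a cytosolic partner of Hsc70, was at -0.10. Below the filter lay Dnajb3 at -0.39, Dnajb7 at 0.04 and Dnajc22 at 0.08.

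Several clusters of 1 gene show how far a difference depends on the probes. There were 8 chaperone genes with more than 1.

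**Figure D4:**
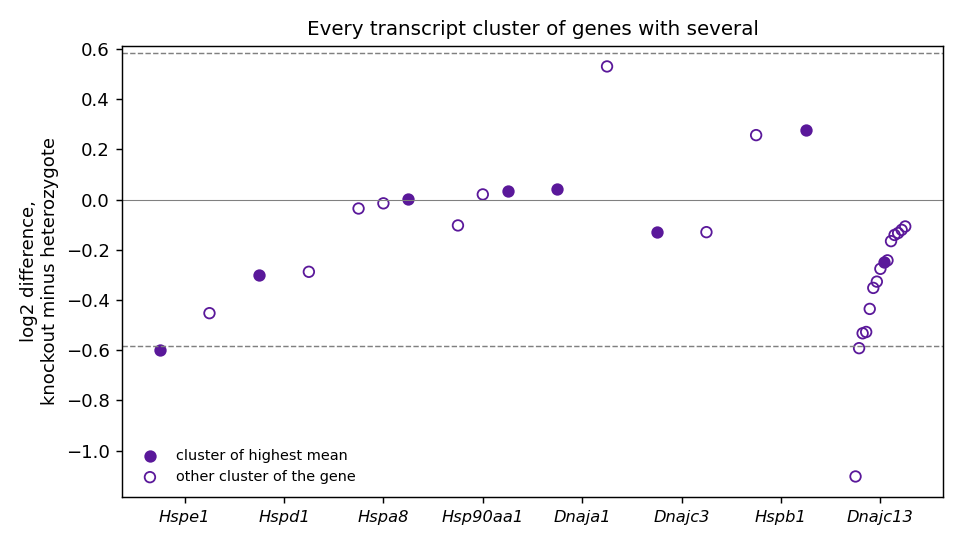
Log2 difference, knockout minus heterozygote, of every transcript cluster of the 8 chaperone genes that have several, with the cluster of highest mean filled and dashed lines at 1.5-fold. All 15 clusters of Dnajc13 lie below 0, from -1.10 to -0.11, and the clusters of Dnaja1 lie apart at 0.04 and 0.53.

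Dnajc13 (RME-8), a large J-domain protein that sorts cargo on endosomes, had 15 clusters. All 15 were lower in the knockout, with a median difference of -0.28. The cluster of highest mean had 11.64 on the heterozygous and 11.39 on the knockout array, a difference of -0.25. The lowest had 8.96 on the heterozygous and 7.85 on the knockout array, 2.15-fold lower, and another was 1.51-fold lower, from 11.27 to 10.68. The clusters read the same RNA and are not replicates, and the files do not say which exons they cover. Dnaja1, a cytosolic J-domain protein, had a cluster at 11.52 on the heterozygous and 11.57 on the knockout array. Its other cluster had 9.41 and 9.94, a difference of 0.53, and a cluster assigned to Dnaja1 and Mir207 had 10.99 and 11.38, a difference of 0.39. The 3 values of Dnaja1 thus share a sign and not a size. Dnajb6 had 8.11 on the heterozygous and 8.05 on the knockout array, and 4 clusters shared by Dnajb6 and Gm4247 had differences from -0.14 to -0.12. Both clusters of Dnajc3 held the same signals to 4 decimals, so they add no second measurement. Clusters shared by Hspa8 and the small nucleolar RNAs of its introns, Snord14c and Snord14d, were both at 0.27.

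Genes that work with the chaperones were read from lists of known partners. TRiC receives its substrates from prefoldin and hands tubulin on to dedicated cofactors, and this list had the lowest median of the 7 read. Of 16 measured, all above the filter, 13 had differences below 0, against 59.1% of all genes above the filter, with a median of -0.22. Of the 16, 1 was lower by 1.5-fold, against 3.17%, and none higher, against 0.449%, and no set test was run. The median was -0.17 with the median difference of genes above the filter subtracted, -0.21 with a loess trend removed and -0.20 with quantile normalization. Vbp1, a prefoldin subunit, had 9.997 on the heterozygous and 9.41 on the knockout array, a difference of -0.59 that was -0.54, -0.49 and -0.50 under those scalings, short of 1.5-fold in each. Pdcl, a phosducin-like cofactor of TRiC, had 9.69 on the heterozygous and 9.11 on the knockout array, -0.58, just inside the limit. At the upper end were Tbcc at 0.10 and the prefoldin subunit Pfdn6 at 0.05.

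Cofactors of Hsp90 and Hsp70 stayed within 1.5-fold. The 16 Hsp90 co-chaperones had a median of -0.04, with Sugt1 at -0.42, Nudcd2 at -0.36, Tomm34 at 0.26 and the glucocorticoid-responsive Fkbp5 at 0.32. The 17 Hsp70 cofactors had a median of -0.03, and the 15 above the filter one of -0.10, against -0.05 over all genes there. Their ends above the filter were the heat-inducible Bag3 at -0.35, the iron-sulfur cluster co-chaperone Hscb at -0.26, the mitochondrial exchange factor Grpel2 at 0.16 and the ubiquitin ligase Stub1 at 0.19. With the median difference of genes above the filter subtracted, the medians of the 16 and the 17 were 0.01 and 0.02.

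Organelle folding genes likewise held none past 1.5-fold. The 26 genes of reticulum folding and the unfolded protein response had a median of -0.10. Of the 25 above the filter, 19 were below 0, against 59.1% of all genes there. The median of these 25 was -0.10, against -0.05. Pdia3, a disulfide isomerase that also serves MHC class I assembly, was at -0.39 and Manf at -0.36, while Atf4, the factor of the integrated stress response, was at 0.08 and Syvn1 at 0.22. The 13 mitochondrial protein quality genes had a median of -0.04, with Clpb at -0.25, Afg3l2 at -0.21, Htra2 at 0.11 and Atf5, a factor of the mitochondrial stress response, at 0.41. The median of these 13 was 0.01 with a loess trend removed.

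**Figure D5:**
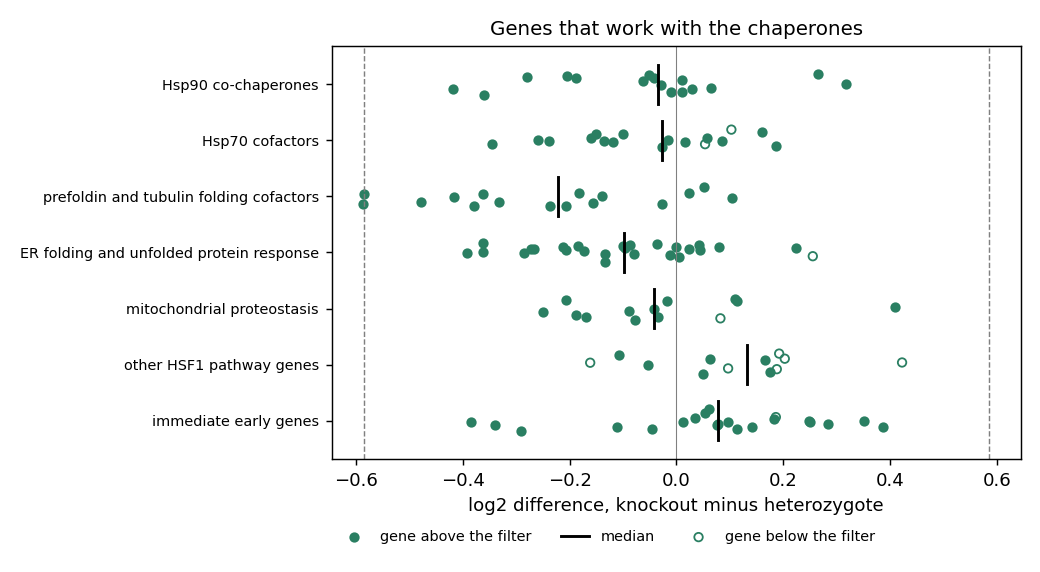
Log2 difference, knockout minus heterozygote, of each gene in 7 lists of chaperone partners and stress genes, filled above and open below the low-signal filter, with list medians as bars and dashed lines at 1.5-fold. Prefoldin and tubulin folding cofactors have the lowest median, -0.22, and Vbp1 at -0.59 is the only gene outside the lines.

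Stress genes outside the chaperone families gave values beside those of Hspa1a and Hsph1. The 12 other genes linked to heat shock factors had a median of 0.13, but 6 of them were below the filter, where the knockout array ran higher. Above it the lowest were Hsbp1 at -0.11 and Hikeshi, the heat shock importer of Hsp70, at -0.05, and the highest Sqstm1 at 0.17 and Hsf4 at 0.18. The 21 immediate early genes, which respond to activation and to cell handling, had a median of 0.08, and 16 were above 0. Of the 20 above the filter, 5 were below 0, against 59.1% of all genes there. The ends of this list were Klf6 at -0.38, Jun at -0.34, Dusp1 at 0.35 and Dusp2 at 0.39, none at 1.5-fold. Whether handling of the samples played a part in the values of Hspa1a and Hsph1 was not tested.

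The cell make-up of the samples was read from marker genes. CD4 T cell markers were strong on both arrays, from 11.56 to 13.54 in the heterozygote and from 11.06 to 13.50 in the knockout over 9 measured genes. Markers of natural killer cells lay between 4.49 and 5.79 on both arrays, and 7 of 8 B cell and 7 of 8 myeloid markers were below the filter. Of the 8 myeloid markers, 4 had differences below 0 and 4 above, the highest Csf1r at 0.19. The lowest were Itgam, with 7.83 on the heterozygous and 7.04 on the knockout array (-0.79), and Fcgr3 at -0.44, both below the filter. Of 6 plasma cell markers 4 were below the filter. Igha, the immunoglobulin A heavy chain, had 9.15 on the heterozygous and 7.13 on the knockout array, a difference of -2.01. Irf4, also above the filter, was at -0.45. Below the filter, Prdm1 was at -0.46, Jchain at 0.02, Mzb1 at 0.13 and Sdc1 at 0.30. Of 4 platelet markers, the integrin Itgb3 was at -0.61 and the other 3 were above 0. Itga2b was at 0.23, and 2 of the 4 were below the filter, Pf4 at 0.22 and Ppbp at 0.07. Of 2 CD8 markers, Cd8b1 was above the filter, at 10.50 on the heterozygous and 10.24 on the knockout array. Cd8a was below the filter, at 7.63 on the heterozygous and 7.65 on the knockout array. Of the regulatory T cell markers, 9 of 9 were below 0, against 59.1% of all genes above the filter. Lower by at least 1.5-fold were 6, against 3.17%. The mean signal of these markers was 10.42 on the heterozygous and 9.58 on the knockout array. Their range was 8.75 to 11.90 in the heterozygote and 7.08 to 11.16 in the knockout, and Foxp3 was at 11.25 and 10.19. The part of regulatory T cells, plasma cells, myeloid cells or platelets in the values of Hspe1, Hsf2 and the other chaperone genes was not tested.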

How the data were processed

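Sorted CD4 T cells of each genotype gave 1 Affymetrix array of total RNA. The authors deposited log2 signals per gene, made by RMA in Expression Console 1.1 for the core gene set, per the labels and the design text. Genome build and probe positions are not stated. RMA sets both arrays to a common distribution of probe signals, so a shift shared by most genes would not show.

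The 35556 rows were named through the platform's annotation, and the 21789 clusters with 1 symbol were kept. The 79 members had 102 such clusters. For a gene with several, the cluster of highest mean was taken, and 10 clusters with several symbols that name a member were given by themselves. All 79 gene identifiers were in the reference gene table, and no symbol had changed. Differences were computed with no further normalization. Counts used genes above the 50th percentile of the mean and limits of 1.5-fold and 2-fold. The text names all Hsp70, Hsp90, small Hsp and chaperonin members, Hsf2, the 8 lowest, 8 highest and 6 brightest J-domain genes above the filter, Taf7 and the ends of each list above the filter; others were chosen after their values were seen. The members and lists were chosen with earlier results of these data known. The gene step was tested on simulated data. The tools were Python 3.11.15 with pandas 2.3.3, statsmodels 0.14.6, numpy 2.4.6 and, for figures, matplotlib 3.10.9.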

Additional observations from a re-analysis of the deposited data

Results flagged for a closer look

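Outside the clusters chosen by highest mean, 2 further clusters of Dnajc13 passed 1.5-fold, and their signals enter none of the counts. One had a difference of -1.10, from a log2 signal of 8.96 in the heterozygote to 7.85 in the knockout. The other had -0.59, from 11.27 to 10.68. The remaining clusters of Dnajc13 did not pass 1.5-fold.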

How the results depend on the processing

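The array number limits every value, and none could be omitted. No paired analysis was possible because there is a single sample of either genotype. The count of chaperone genes lower by 1.5-fold was 1, and 0 with the median difference of genes above the filter subtracted, with quantile normalization or with clusters averaged, since Hspe1 lies close to the limit: its difference was -0.55, -0.54 and -0.53 there. It was 1 with the loess trend (span 0.3) removed, where Hspa13 at -0.59 passed in place of Hspe1 at -0.56. The count was also 1 with no filter and with filters at the 25th and 75th percentiles. Heat shock elements were in 4 members with 3 pentamers and 18 with 2. Of the summary values under alternatives, 96 moved little (medians by less than 0.1, counts by at most 1.5 times) and 4 moved further, all of them counts. Many medians are smaller than 0.1, so a sign could change within that limit. The medians of Hsp90 co-chaperones (-0.04) and mitochondrial protein quality genes (-0.04) were 0.03 and 0.01 with the loess trend removed. That of Hsp70 cofactors (-0.03) was 0.02 with the median difference subtracted, and that of Hsp90 genes (-0.05) was 0.003 with quantile normalization. The other medians kept their sign. Of the values of named members, 215 moved less than the robust SD among the 500 genes nearest in mean and 9 moved further, 8 of them with the loess trend removed.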
